A study of Mus musculus with 4 samples.

Results

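The genes described here make up the interferon response and the sensing of foreign nucleic acid, read in single whole mouse embryos at embryonic day 5.5. They are a fixed list of 32 genes out of 47885 rows in the deposited count table, and all 32 were found in it. The genes were chosen by name, with earlier results of these data known. The list holds 5 sensors of double-stranded RNA (dsRNA) and their adaptor, 5 effectors that dsRNA switches on, 3 enzymes that limit self nucleic acid, 8 genes of the interferon receptor and its signalling, and 11 antiviral effectors. The embryos, on a C57BL/6 background, fell into 2 groups. The WT group (2 embryos, labelled Mettl14+/+) had been classed as controls because they expressed Mettl14, and the KO group (2 embryos, labelled Mettl14-/-) lacked it by qPCR on part of the same amplified cDNA. A control chosen by expression could carry 1 or 2 intact alleles, and since Mettl14 RNA set the classes, its level in these libraries is no separate check of them. Mettl14 encodes the partner of Mettl3 in the enzyme that writes m6A, a methyl mark on adenosines of messenger RNA. Which exons were deleted is not stated in the labels.

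Cells detect dsRNA, a product of viral replication and of some of the cell's own transcripts, with the cytoplasmic helicases RIG-I (Ddx58) and MDA5 (Ifih1) and with the endosomal receptor TLR3. RIG-I and MDA5 signal through MAVS to the factors IRF3 and IRF7, which switch on interferon genes. Secreted type I interferon binds a receptor of the chains IFNAR1 and IFNAR2, and a complex that contains STAT2 and IRF9 then binds the interferon-stimulated response element (ISRE) in the promoters of antiviral genes. Pluripotent cells and early embryos are known for making little interferon and answering it weakly. Loss of the m6A writer has been linked to dsRNA and its sensing in blood progenitors, so this gene group is a question that the comparison of KO with WT can address.

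The libraries held 16108062 (WT replicate 1) to 28698541 (KO replicate 2) counts. KO replicate 2 also had the lowest correlation with another library (Pearson 0.879 with WT replicate 1, across genes). Despite its depth it had the fewest genes detected, 18346, against 19603 to 21488 in the other libraries. Mettl14, on chromosome 3 (123368297 to 123386108, mm10, as for all genes here), had levels of 34.0 and 31.6 CPM (counts scaled to the depth of each library) in WT and 4.63 and 8.04 CPM in KO, lower in both KO embryos (log2 fold change -2.37, SE 0.45, edgeR adjusted p = 0.274, DESeq2 adjusted p = 0.000418). Epiblast markers were present in all 4 embryos, at summed levels of 1803 to 2776 CPM over 8 genes. The 9 visceral endoderm markers summed to 657 and 1767 CPM in WT and to 253 and 324 CPM in KO. The 7 ectoplacental cone and giant cell markers summed to 192 and 302 CPM in WT and to 1259 and 648 CPM in KO, with Tpbpa and Prl2c2 at 0 in all embryos. Summed over genes, endoderm markers were thus lower and cone markers higher in both KO embryos. By gene, both KO embryos were below WT for 6 of the 9 endoderm markers (66.7%, background 18.8% of all tested genes), and 3 overlapped. For all 5 tested cone markers both KO embryos were above WT (100%, background 19.4%). The 14 blood and immune markers summed to 16.5 to 19.2 CPM in every embryo, 3 of them (Lyz2, Adgre1 and Hbb-bs) at 0 throughout. Of the 6 that were tested, both KO embryos were above WT for 4 (Cd74, Cd52, Cd68 and Csf1r) and below for 1 (H2-Ab1). These are 66.7% and 16.7%, against a background of 19.4% and 18.8% of all tested genes. The median log2 fold change of the 6 was 0.82. Csf1r had 0 counts in each WT embryo against 15 and 25 in KO, so it was tested only because of the KO embryos. The 8 markers of maternal decidua summed to 10.3 and 12.3 CPM in WT and to 3.35 and 3.73 CPM in KO. The 5 endothelial markers summed to 2.36 and 1.87 CPM in WT and to 46.0 and 20.7 CPM in KO. Of the 4 that were tested, both KO embryos were above WT for 2 (50%, background 19.4%) and the groups overlapped for 2. The log2 fold changes of these 4 were uneven, from 0.36 to 11.9. These shifts move with the groups, and their part in the values below was not tested. In whole embryos fewer cells of a type and less RNA per cell cannot be told apart.

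Across the 4 embryos the list was led by the antiviral effectors Bst2 and Ifitm3, while several other listed genes were at or near 0. Levels of different genes were compared as CPM per kilobase of exon, averaged over the 4 embryos. Bst2, which encodes tetherin, a membrane protein that holds budding virions at the cell surface, was highest at 142. Ifitm3, whose product blocks viral fusion and which is also known as the germ cell gene fragilis, followed at 108. In single embryos Bst2 spanned 122 to 185 and Ifitm3 66.2 to 155, so their ranges overlapped. Irf3 (14.3), Irf1 (11.5), Ifitm1 (10.8), Samhd1 (5.54) and Oasl2 (4.48) came next. At the other end Mx1, Ifit3 and Trex1 had 0 counts in all 4 embryos. The 0 is no measure of Trex1, whose exons all lie within those of Atrip. Ifit3b, a near-identical copy of Ifit3, also had 0 counts, and whether reads that fit both copies were counted is not known. For Mx1, a level of up to 3 counts per group could be missed, which is 0.0841 CPM in WT and 0.0612 CPM in KO and covers counting error only. Usp18 had 2 counts in all, both in WT replicate 1.

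**Figure D1:**
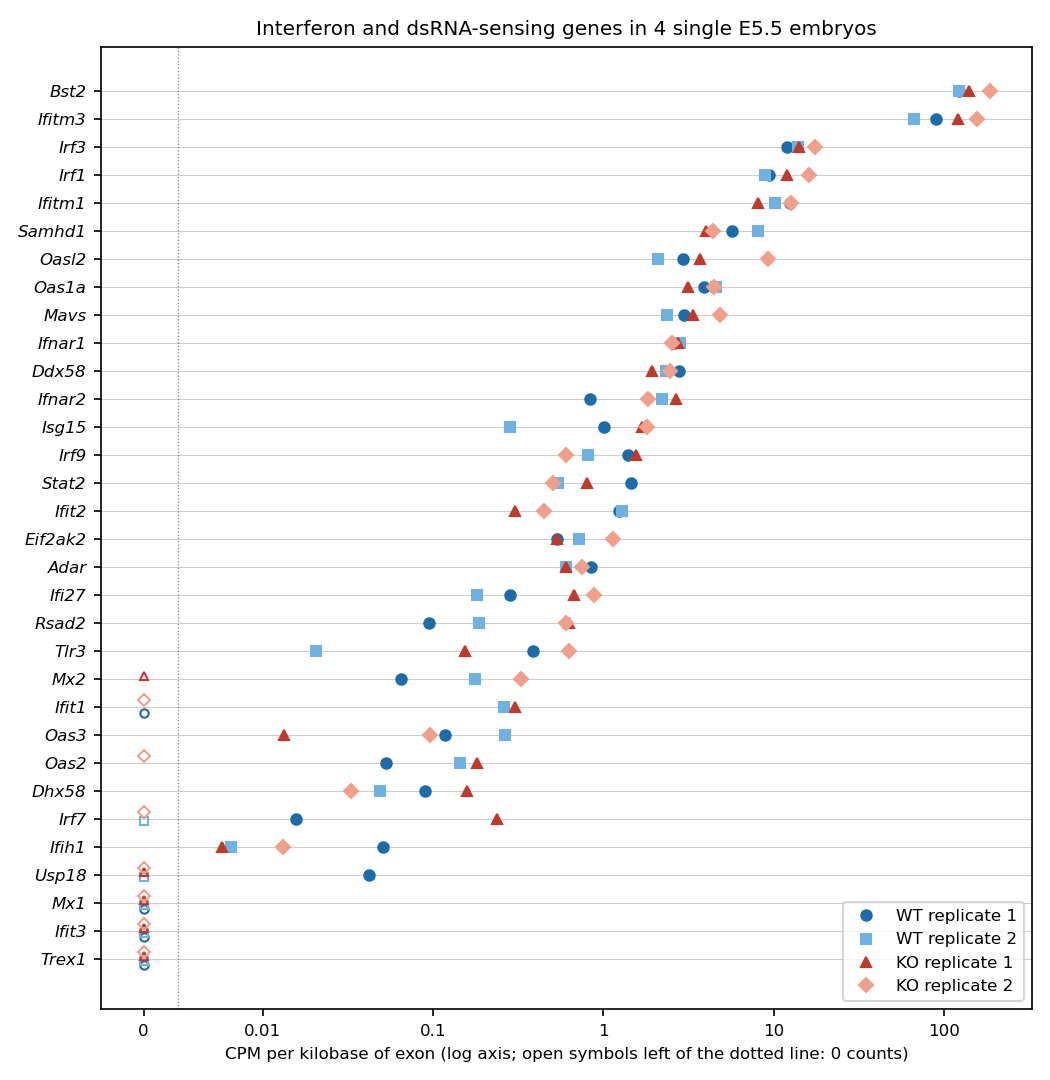
Level of each of the 32 genes in each embryo, as CPM per kilobase of exon on a log axis; circles and squares are the WT embryos, triangles and diamonds the KO embryos, and open symbols at the left mark 0 counts. Bst2 and Ifitm3 lie far to the right, at means of 142 and 108, and Mx1, Ifit3 and Trex1 are at 0 in all embryos.

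Listed genes with and without an interferon response element in the promoter covered overlapping ranges of level. Promoters of RefSeq on GRCm38.p6 (250 bases before to 50 after the start) were on hand for 26 of the 32 genes. The ISRE core, written GAAANNGAA on either strand, was found in 13 of these 26 genes (50%), against 9.76% of the 27025 genes with a promoter of this length. The gamma-activated site, TTCNNNGAA, an element of genes that answer interferon gamma, was found in 10 of the 26 (38.5%), against 9.55% of genes. The listed genes were named for their response to interferon, so the share with an ISRE core is a property of the list. The 13 genes with the core ran from 0 to 142 CPM per kilobase, with a median of 0.731, and the 13 without it from 0 to 14.3, with a median of 2.67. A match is a run of letters and not a shown binding site.

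The promoters of Bst2, Isg15, Rsad2 and Ifit3 show this spread, since Bst2 was the highest of the list, Isg15 (0.214 to 1.36 CPM) and Rsad2 (0.413 to 2.74 CPM) were low, and Ifit3 had no count. Each line gives the 160 bases before the start, 5′ to 3′ on the gene's strand, with every whole ISRE core in capitals. Overlapping cores run together: Bst2 holds 2, Isg15 3, Rsad2 1 and Ifit3 3. None of these windows overlaps an annotated exon in GENCODE M21.
Bst2, chr8:71537473-71537632, minus strand: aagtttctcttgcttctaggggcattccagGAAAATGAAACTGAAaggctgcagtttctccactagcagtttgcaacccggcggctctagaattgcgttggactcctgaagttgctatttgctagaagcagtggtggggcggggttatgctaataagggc
Isg15, chr4:156200819-156200978, minus strand: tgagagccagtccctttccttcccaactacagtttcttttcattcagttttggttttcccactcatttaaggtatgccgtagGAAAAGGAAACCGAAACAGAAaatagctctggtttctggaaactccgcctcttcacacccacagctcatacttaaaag
Rsad2, chr12:26456453-26456612, minus strand: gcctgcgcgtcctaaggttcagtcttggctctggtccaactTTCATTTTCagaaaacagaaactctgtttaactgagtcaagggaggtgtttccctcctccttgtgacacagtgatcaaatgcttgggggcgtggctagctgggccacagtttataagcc
Ifit3, chr19:34583369-34583528, plus strand: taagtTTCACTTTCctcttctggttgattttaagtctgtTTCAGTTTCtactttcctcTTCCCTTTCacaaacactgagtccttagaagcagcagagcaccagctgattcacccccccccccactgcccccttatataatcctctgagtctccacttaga

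The core was thus present 3 times in the promoter of Isg15, which had between 4 and 38 counts per embryo, and 3 times in that of Ifit3, which had none. Oasl2 and Ifit2, described below, had no core in the windows searched, which says only that these letters are not in them. Among tested genes the log2 fold change of KO over WT had a median of 0.17 for the 11 with the core and 0.28 for the 11 without it, and 6 of 11 were positive in each set.

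**Figure D2:**
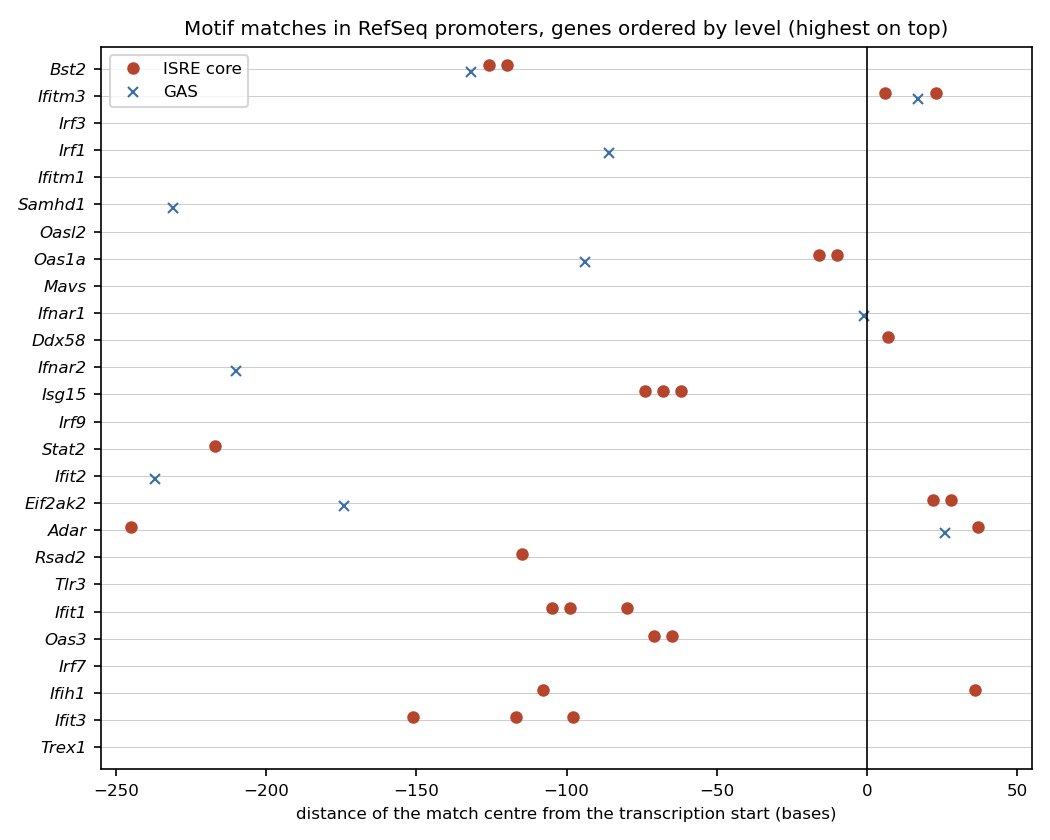
Centres of motif matches in the RefSeq promoters of 26 genes, as distance from the transcription start in bases; circles are ISRE cores and crosses gamma-activated sites, genes are ordered by level with the highest on top, and genes with several starts show all of them in 1 row. Isg15 (4 to 38 counts per embryo) and Ifit3 (0 counts) each show 3 cores.

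No gene of the list differed between KO and WT beyond the threshold. Of the 32 genes, 25 had enough reads to be tested. By edgeR, 0 were higher and 0 lower in KO at an adjusted p under 0.05, where 0.0% of the 15563 genes tested passed in either direction. At an unadjusted p under 0.05, 3 were higher (background 4.74%) and 1 lower (background 3.08%). DESeq2 called 0 of the 25 higher and 0 lower, against 0.964% and 0.578% of all genes, and limma-voom called 0. Oas2 and Ifit1 got no adjusted p from DESeq2 and are counted here as not called. The smallest edgeR adjusted p among the 25 was 0.555. Their median log2 fold change was 0.28, against -0.03 over all tested genes, and 14 of 25 (56.0%) were positive (background 47.7%). Values above 1 were found for 4 genes (background 10.4%) and below -1 for 2 (background 10.7%). The sign of the median depended on the fit: it was -0.046 with limma-voom and -0.041 with the replicate number as a block. Without KO replicate 2 the filter left 27 listed genes, and their median was 0.19. Both KO embryos lay above both WT embryos for 9 of the 25 (36.0%, background 19.4%) and below both for 3 (12%, background 18.8%). These counts and medians are a description, since the list was chosen with earlier results of these data known. Tested genes also had to reach 0.495 CPM in 2 libraries, and Ifi27 reached it only in the KO embryos. The summed level of all 32 genes was 425 and 420 CPM in WT and 458 and 602 CPM in KO.

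**Figure D3:**
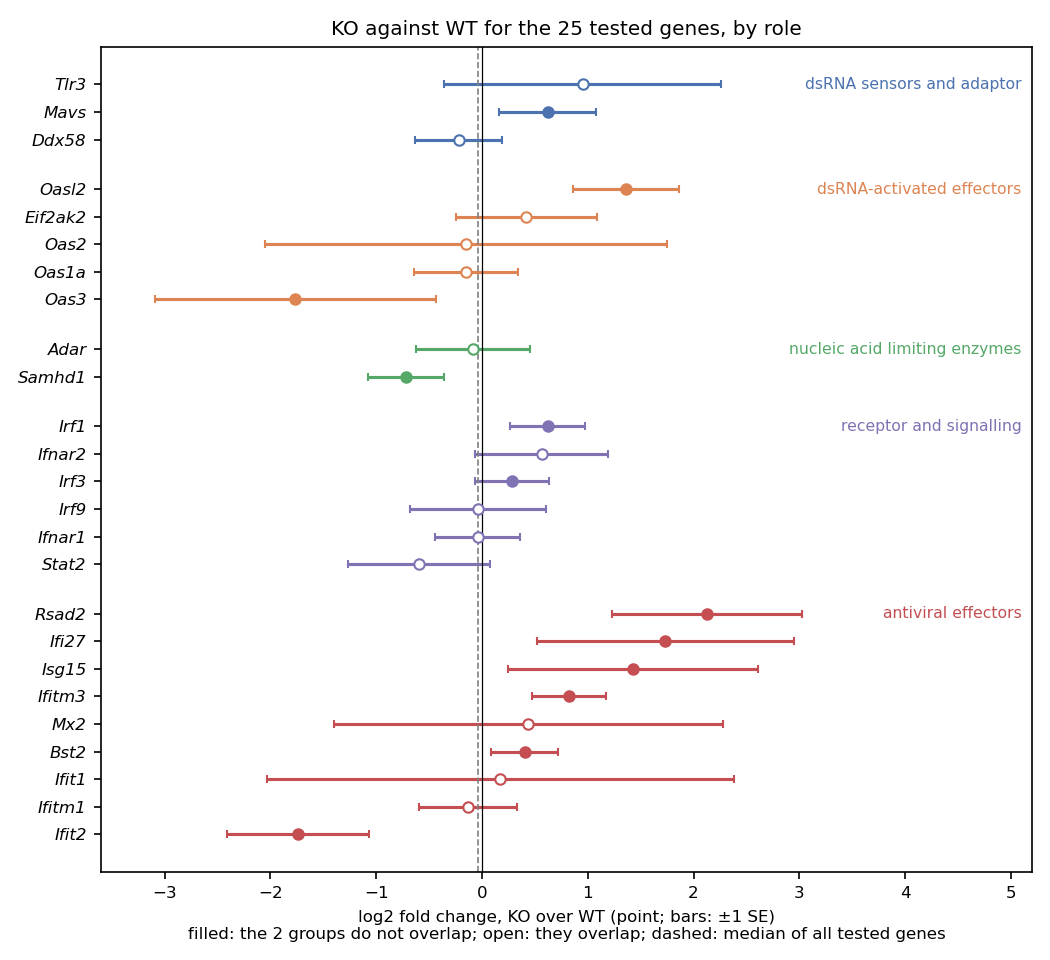
Log2 fold change of KO over WT for the 25 tested genes, grouped by role, with bars of 1 standard error; filled points mark genes whose groups do not overlap (9 higher and 3 lower in KO), and the dashed line is the median of all tested genes at -0.03. Most bars cross 0, and no gene passed at an adjusted p under 0.05.

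Among the sensors, RIG-I and the adaptor MAVS were expressed in all embryos, while MDA5 and LGP2 were close to the floor. Ddx58 (chromosome 4), the gene of RIG-I, stood at 19.5 and 16.5 CPM in WT and 13.5 and 17.3 CPM in KO. The groups overlapped, with a log2 fold change of -0.22 (SE 0.41; every group here is 2 embryos). Mavs (chromosome 2), the mitochondrial adaptor of RIG-I and MDA5, stood at 9.90 and 7.86 CPM in WT and 11.2 and 16.1 CPM in KO. Both KO embryos were above WT, by 0.62 (SE 0.46, edgeR adjusted p = 0.842). Tlr3 (chromosome 8) was uneven within each group, at 2.00 and 0.107 CPM in WT and 0.803 and 3.27 CPM in KO. Its log2 fold change of 0.95 (SE 1.31) turned to -0.37 without KO replicate 2, and an antisense gene overlaps 381 bases of its exons. Ifih1, the MDA5 gene, had 7 and 1 counts in WT against 1 and 3 in KO. Dhx58, the gene of the regulator LGP2, had 5 and 3 counts in WT against 11 and 3 in KO. Neither was tested.

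Among the effectors that dsRNA activates, Oasl2 had higher values in KO, Oas3 lower, and the others overlapped. Oasl2 (chromosome 5, 114896936 to 114912234), an OAS-like gene whose product carries ubiquitin-like domains, stood at 18.7 and 13.4 CPM in WT and 23.6 and 58.6 CPM in KO. Both KO embryos were above both WT embryos, but the KO embryos differed from each other by more than KO replicate 1 did from WT. The log2 fold change was 1.36 (SE 0.50, edgeR adjusted p = 0.555), and it was 0.57 without KO replicate 2 (adjusted p = 0.9999). Without KO replicate 1 it was 1.95 and passed (adjusted p = 0.0378), in a fit that rests on KO replicate 2 alone and assumes that it varies as WT does. Over the alternatives with all 4 embryos the adjusted p of Oasl2 ran from 0.148 to 0.602.

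The other synthetases make 2′-5′ linked oligoadenylates, a second messenger of dsRNA. Oas1a stood at 7.37 and 8.60 CPM in WT and 5.90 and 8.43 CPM in KO, with overlapping groups (log2 fold change -0.16, SE 0.49). Oas3, which prefers long dsRNA, was low at 0.825 and 1.87 CPM in WT and 0.0944 and 0.682 CPM in KO (-1.76, SE 1.32, adjusted p = 0.848). Its value was -0.90 without KO replicate 1 and -3.74 without KO replicate 2. Oas2 had 4 and 12 counts in WT against 17 and 0 in KO. The Oas1 copies are near neighbours in sequence, so the split of reads between them is uncertain. Eif2ak2 (chromosome 17), the gene of the kinase PKR that stops translation when dsRNA binds it, stood at 2.71 and 3.69 CPM in WT and 2.74 and 5.81 CPM in KO. Its groups overlapped (0.42, SE 0.67), and the sign turned without KO replicate 2 (-0.22).

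Of the enzymes that keep self nucleic acid from being sensed, Samhd1 had lower values in KO and Adar overlapped. Adar (chromosome 3), which edits adenosine to inosine in dsRNA and so hides it from MDA5, stood at 6.84 and 4.86 CPM in WT and 4.91 and 6.10 CPM in KO. The groups overlapped, with a log2 fold change of -0.09 (SE 0.54), and 1365 of the 8118 exonic bases of Adar overlap Chrnb2 on the opposite strand. Samhd1 (chromosome 2, 157097533 to 157135265), a triphosphohydrolase that depletes deoxynucleotides, stood at 52.2 and 73.9 CPM in WT and 36.4 and 40.3 CPM in KO. Both KO embryos were below both WT embryos, by -0.72 (SE 0.36, edgeR adjusted p = 0.714). Trex1, a DNA exonuclease, had 0 counts in all embryos, but all 1147 of its exonic bases also belong to Atrip, which had 12 to 33 counts. Reads there can be assigned to either gene.

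Receptor and signalling genes were detected in all embryos except Irf7 and Usp18, and only Irf1 and Irf3 had groups that did not overlap. Ifnar1 (chromosome 16) was even across embryos, at 15.5 and 16.7 CPM in WT and 16.2 and 15.03 CPM in KO (-0.04, SE 0.40). Ifnar2 stood at 2.77 and 7.32 CPM in WT and 8.88 and 6.06 CPM in KO, and its groups overlapped (0.56, SE 0.62). The value was 0.034 without WT replicate 1 and 1.44 without WT replicate 2. Stat2 and Irf9 encode partners in the factor that binds the ISRE. Stat2 stood at 8.55 and 3.21 CPM in WT and 4.77 and 3.01 CPM in KO (-0.59, SE 0.67), a value that turned to 0.28 without WT replicate 1. Irf9 stood at 7.49 and 4.38 CPM in WT and 8.36 and 3.23 CPM in KO (-0.04, SE 0.64), with a wider gap within each group than between them.

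Irf1 (chromosome 11, 53770014 to 53778374), a factor that holds up basal antiviral expression, stood at 37.0 and 35.3 CPM in WT and 47.4 and 63.9 CPM in KO. The groups did not overlap, with a log2 fold change of 0.62 (SE 0.35, adjusted p = 0.759). Irf3, the factor that dsRNA sensing activates by phosphorylation, stood at 40.9 and 47.9 CPM in WT and 48.2 and 59.9 CPM in KO, and its groups nearly touched (0.28, SE 0.35). Irf7, the factor that interferon itself induces, had 1 and 0 counts in WT against 19 and 0 in KO. It was not tested, nor was Usp18, the brake on the receptor that also removes ISG15. Of the exons of Irf3 88 bases overlap Bcl2l12, and of Irf1 135 bases overlap Gm17334, on the opposite strand.

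No antiviral effector passed the threshold, and values went in both directions, with Rsad2 higher and Ifit2 lower in both KO embryos. Of the 9 tested, 7 were positive (77.8%, background 47.7%) and 2 negative. Both KO embryos lay above WT for 5 (55.6%, background 19.4%) and below for 1 (11.1%, background 18.8%). Rsad2 (chromosome 12, 26442746 to 26456452), the gene of viperin, whose product makes a chain-terminating nucleotide, had 7 and 15 counts in WT against 58 and 73 in KO, or 0.413 and 0.802 against 2.74 and 2.62 CPM. The KO embryos lay together above WT, with a log2 fold change of 2.13 (SE 0.90, edgeR adjusted p = 0.626, and 0.582 by DESeq2). Leaving out any 1 embryo gave 1.75 to 2.69. Ifit2 (chromosome 19, 34550694 to 34576419), which binds foreign RNA and blocks its translation, ran the other way, at 4.83 and 5.02 CPM in WT and 1.18 and 1.76 CPM in KO. Its log2 fold change was -1.74 (SE 0.67, adjusted p = 0.574) and lay between -2.05 and -1.40 with 1 embryo left out. Ifit1, of the same family, had 0 and 13 counts in WT against 17 and 0 in KO, and the near-identical Ifit3 and Ifit3b had 0 in all embryos.

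Ifitm3 (chromosome 7, 141009586 to 141010770) stood at 60.6 and 44.9 CPM in WT and 81.8 and 105 CPM in KO. The groups did not overlap (0.83, SE 0.35, adjusted p = 0.626), and the value stayed between 0.63 and 1.08 with 1 embryo left out. Of its neighbours, Ifitm1 stood at 13.6 and 11.1 CPM in WT and 8.78 and 13.7 CPM in KO, and Ifitm2 differed by 0.04 (SE 0.34). Whether the family members differ in their response was not tested, and their shared sequence makes the split of reads uncertain. Bst2 (chromosome 8) stood at 111 and 110 CPM in WT and 126 and 167 CPM in KO, so the WT embryos were nearly equal and both below KO (0.40, SE 0.32, adjusted p = 0.853).

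Isg15, the gene of a ubiquitin-like protein that interferon induces and that is attached to many targets, had 13 and 4 counts in WT against 27 and 38 in KO (1.42, SE 1.18). The value was 2.61 without WT replicate 1 and 0.79 without WT replicate 2. Ifi27, an interferon-induced membrane protein gene, had 7 and 5 counts in WT against 21 and 36 in KO (1.73, SE 1.21). For Isg15 and Ifi27 the KO embryos were above WT at depths where single counts weigh heavily. KO replicate 2 was also the deepest library and the one with the fewest genes detected. Mx2, typed as a polymorphic pseudogene in GENCODE M21, had 4 and 12 counts in WT against 0 and 33 in KO. C57BL/6 mice are known to carry a defective Mx1 allele, and Mx1 had no count. Whether the 2 are linked was not tested.

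**Figure D4:**
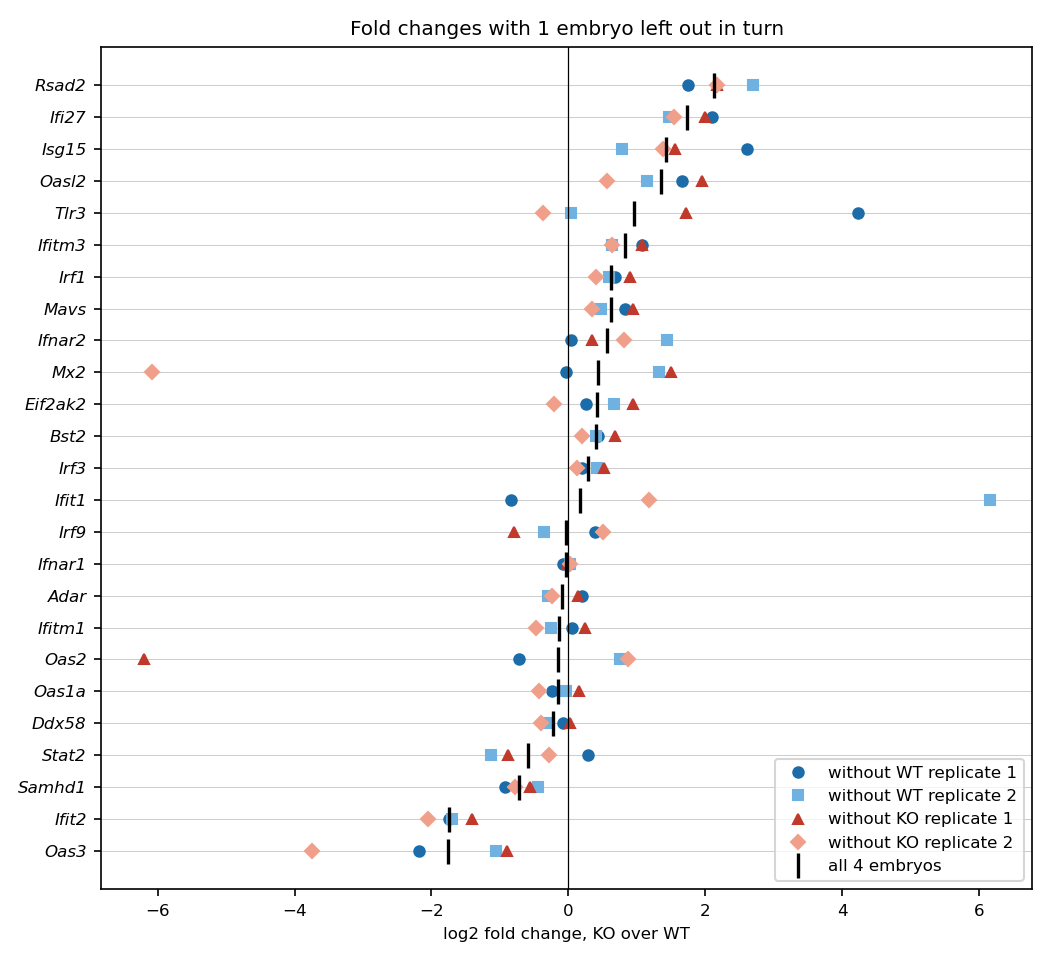
Log2 fold change of KO over WT for the 25 tested genes with each embryo left out in turn (symbols) and with all 4 embryos (black bars). Rsad2 (1.75 to 2.69) and Ifit2 (-2.05 to -1.40) stay on one side of 0, while Tlr3, Mx2, Ifit1 and Oas2, which had 0 to 2 counts in at least 1 embryo, spread widely; the outermost points of Mx2, Oas2 and Ifit1 are fits in which a group was left with 0 counts.

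The interferons themselves were all but undetected. Of 21 ligand genes, 19 had 0 counts in all 4 embryos, Ifnb1 and every Ifna gene among them. Ifnk, an interferon of keratinocytes, had 12 and 1 counts in WT against 3 and 5 in KO, and Ifnl3 had 2 counts in KO replicate 1. No ligand was tested.

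Other genes around the pathway were read from lists of which 0 members passed by edgeR or DESeq2 in either direction. Of 25 further signalling genes 22 were tested, with 3 higher (background 4.74%) and 0 lower (background 3.08%) in KO at an unadjusted p under 0.05, at a median log2 fold change of 0.34. In all, 15 were positive (68.2%, background 47.7%) and 7 negative. The 4 genes named next had the smallest p. Il10rb, a receptor chain gene, came after them, with overlapping groups and the lowest value of the list (-1.47, SE 0.82). Socs1, an inhibitor of JAK kinases, stood at 7.31 and 11.5 CPM in WT and 18.0 and 28.6 CPM in KO (1.31, SE 0.47, edgeR adjusted p = 0.528). Jak2, the kinase of the interferon gamma receptor, was set apart by KO replicate 1, at 5.78 and 7.05 CPM in WT and 30.4 and 9.29 CPM in KO (1.63, SE 0.61, and 0.61 to 2.25 with 1 embryo left out). Traf6, a ubiquitin ligase of the Toll-like receptors, differed by 0.99 (SE 0.42) and Ifngr1, a chain of the interferon gamma receptor, by 0.87 (SE 0.42). Of 14 sensors of DNA and their endosomal relatives 9 were tested (median 0.30). Zbp1, a sensor of Z-form nucleic acid, stood at 7.13 and 4.70 CPM in WT and 12.3 and 12.6 CPM in KO (1.07, SE 0.48, adjusted p = 0.651). Unc93b1, the chaperone of endosomal receptors, differed by 0.86 (SE 0.50), the TLR3 adaptor gene Ticam1 by 0.70 (SE 0.70), and Tmem173, the gene of the adaptor STING, by -1.26 (SE 1.29). With 1 embryo left out Ticam1 ran from 0.18 to 1.62 and Tmem173 from -1.89 to -0.75.

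Among 35 other interferon-stimulated genes, 23 were tested, and their median was 0.52. Log2 fold changes ran from -1.80 to 7.49, with 16 positive (69.6%, background 47.7%) and 7 negative. The tested genes named below, picked by smallest p, all had higher values in KO. At an unadjusted p under 0.05, 4 were higher (background 4.74%) and 2 lower in KO (background 3.08%). The groups lay apart for 10 with KO higher (43.5%, background 19.4%), Rtp4 among them, and for 2 with KO lower (8.70%, background 18.8%). Irgm1, an immunity-related GTPase gene, stood at 25.2 and 28.6 CPM in WT and 48.9 and 63.2 CPM in KO (1.06, SE 0.36, edgeR adjusted p = 0.524). Parp14, an ADP-ribosyltransferase gene, stood at 2.00 and 1.07 CPM in WT and 5.15 and 5.38 CPM in KO (1.77, SE 0.68). Cxcl10, a chemokine that interferon induces, had 7 and 0 counts in WT against 38 and 99 in KO. It too reached the filter level only in the KO embryos, so its place in the counts above is a description. Rtp4, an interferon-induced chaperone of receptors, had 0 counts in each WT embryo against 22 and 30 in KO. The pooled KO level of Rtp4 was 12.6-fold the floor of 3 counts taken over the WT group. This ratio leaves out counting error in KO and the spread between embryos. Rtp4 was tested only because of the KO embryos (edgeR adjusted p = 0.488). In the same list Ifi44, Ifi44l, Iigp1, Ccl5 and Sp100 had 0 counts in all embryos.

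Genes of class I antigen presentation, which interferon also raises, had a median of 0.40 over 10 tested genes. The immunoproteasome subunits Psmb8, Psmb9 and Psmb10 differed by 0.95 (SE 0.47), 0.77 (SE 0.51) and 0.56 (SE 0.32), and Tapbp by 0.52 (SE 0.40). Psmb9 stood at 8.67 and 8.07 CPM in WT and 9.25 and 19.2 CPM in KO, with KO replicate 2 standing above the other embryos (0.16 to 1.28 with 1 embryo left out). The class I gene H2-K1 and the light chain gene B2m differed by -0.14 (SE 0.32) and 0.15 (SE 0.42). In 17 tested genes of dsRNA handling, such as nucleases, editors and binding proteins, the median was -0.07. Ago2, the slicer of RNA interference, stood at 107 and 95.7 CPM in WT and 75.9 and 56.4 CPM in KO (-0.62, SE 0.34, adjusted p = 0.753). Skiv2l, a helicase of the cytoplasmic exosome, differed by -1.06 (SE 0.54, and -1.50 to -0.38 with 1 embryo left out), Zfr by -0.45 (SE 0.33) and Stau2, a dsRNA-binding transport protein gene, by 0.81 (SE 0.44).

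**Figure D5:**
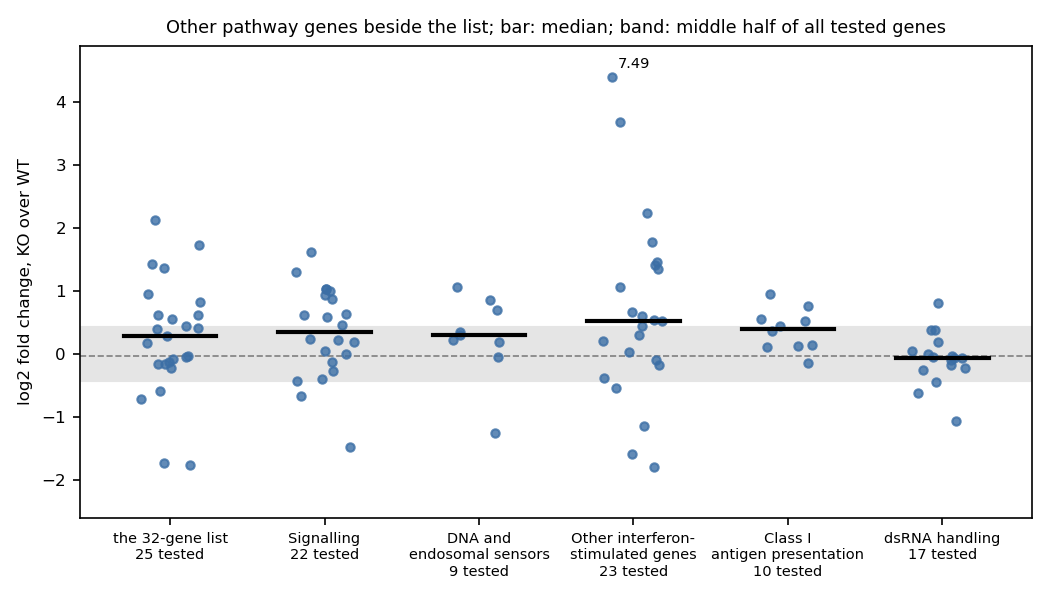
Log2 fold change of KO over WT for tested genes of the 32-gene list and of 5 further lists; each point is a gene, black bars are list medians (0.28, 0.34, 0.30, 0.52, 0.40 and -0.07 from left to right), the dashed line is the median and the grey band the middle 50% of all tested genes. Rtp4, at a fitted 7.49, is drawn at the upper edge with its value.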

How the data were processed

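Polyadenylated RNA of 4 single embryos was amplified by Smart-Seq v4 before paired-end sequencing (150 bases per read), per the labels' protocols. The authors deposited whole-number read counts per gene without normalisation. Per the submitters' processing notes, TopHat, Cufflinks and the mm10 build were used, in unstated versions and roles. The counter, its use of strand and its annotation: not given in the sources used here. Without strand, a read in an overlap of antisense genes fits either. Of the 47885 rows, 46574 matched GENCODE M21, from which symbols, coordinates and exon lengths were taken; 495 Ensembl identifiers did not match and 816 rows were unnamed gene models.

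KO was compared with WT by edgeR 4.0.16 in R 4.3.3 (filterByExpr with minimum count 10 and minimum total 15, TMM, robust quasi-likelihood F test), with Benjamini-Hochberg adjustment over 15563 genes and a threshold of 0.05. CPM used TMM-scaled library sizes, so that 1 count was worth 0.0590, 0.0534, 0.0472 and 0.0359 CPM in WT 1, WT 2, KO 1 and KO 2. A standard error (SE) is the size of the log2 fold change over the square root of F, and restates that test. An exact permutation test of 2 embryos against 2 cannot go below p = 0.333 (two-sided), so none was run. Each library is 1 embryo, and p-values measure the spread between them. The tests were tried on simulated counts first. Alternatives were DESeq2 1.42.0, limma-voom (limma 3.58.1), RLE scaling, library totals, no low-count filter, at least 50 counts in 2 libraries, the replicate block and leaving out each embryo.

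The 32 genes and the other lists were chosen with earlier results of these data known. By the rule for names, every listed gene was accounted for, with up to 4 tested genes of each further list by smallest p; Ifitm2, Ifit3b, H2-K1, B2m and genes at 0 were added for their role after their values were seen. Values of 2 genes in these lists are not reported here.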

Additional observations from a re-analysis of the deposited data

How the results depend on the processing

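Of the 25 tested genes, 13 kept their sign under each of the 11 alternatives that fitted them. Oas3, Isg15 and Ifi27, among these 13, were not fitted under the filter of 50 counts, which left 18 listed genes. None passed with all 4 embryos under any setting, and 1, Oasl2, passed without KO replicate 1; leaving out 1 embryo gave 0 to 1 listed genes higher and 0 lower. Over all genes, the count of calls was 0 higher and 0 lower with limma-voom, RLE scaling, library totals and at least 50 counts in 2 libraries. With DESeq2 150 were higher and 90 lower, with the filter dropped 157 and 101, and leaving out 1 embryo 14 to 133 higher and 1 to 209 lower. The median of the list was 0.11 over the 18 genes left by the filter of 50 counts and -0.046 with limma-voom. With 1 embryo left out it was 0.19 to 0.43, over the 24 to 27 listed genes that each fit tested. The cause was not tested.

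Nothing in the labels ties equal replicate numbers to a litter or day, so pairing is not given by the design. Across genes the WT replicate difference correlated at 0.329 with the KO replicate difference. The replicate block gave 52 higher and 19 lower genes over all and 0 of the list, whose median was -0.041. Under this block Ifit1 stood at -0.20 and Mx2 at -0.73.

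With limma-voom Ifit1 stood at -0.65 and Mx2 at -1.03. With 1 embryo left out the sign of 12 genes turned at least once: Ddx58 ran from -0.40 to 0.025, Tlr3 from -0.37 to 4.23, Eif2ak2 from -0.22 to 0.94, Oas1a from -0.43 to 0.16, Oas2 from -6.21 to 0.86, Adar from -0.30 to 0.20, Ifnar1 from -0.078 to 0.023, Stat2 from -1.13 to 0.28, Irf9 from -0.79 to 0.51, Ifit1 from -0.84 to 6.16, Mx2 from -6.08 to 1.49 and Ifitm1 from -0.48 to 0.24. RLE scaling and library totals turned no sign. Few counts limit the precision for genes near or under 1 CPM, such as Isg15, Oas2, Mx2 and Ifit1.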
